A study of Arabidopsis thaliana with 32 samples.

Results

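The 4 genes described here encode the iron importer IRT1 (AT4G19690), its close relative IRT2 (AT4G19680) and the plasma membrane proton pumps AHA2 (AT4G30190) and AHA7 (AT3G60330) of Arabidopsis thaliana. They were taken by gene identifier from the 33607 genes of the deposited tables, and all 4 were found. Plants other than grasses acquire iron by reduction at the root surface. Proton pumps of the P-type ATPase family acidify the soil around the root and so dissolve ferric iron, the reductase FRO2 converts it to ferrous iron, and IRT1 carries the ferrous iron into epidermal cells. IRT1 also carries zinc, manganese and other divalent metals, IRT2 is an iron and zinc transporter associated with intracellular vesicles, AHA2 is the pump linked to acidification under iron shortage, and AHA7 is known for a part in root hair formation.

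Poly(A) RNA was sequenced from roots and whole rosettes of 4 lines. EYFP OE is the transgenic control and expresses a yellow fluorescent protein from the 35S promoter, which is active in most plant cells. IMA1 OE and IMA3 OE carry the open reading frames of IMA1 or IMA3, small peptides that promote the iron deficiency response, behind the same promoter and in the same vector. The opt3-2 line has a T-DNA insertion at OPT3, a phloem transporter of iron, and its labels name no transgene, so its comparison with EYFP OE is also one of an insertion line with a transformed line. The labels name 1 line of each kind, and do not give the age in any other form than the growth schedule. Seedlings of every group grew for 10 days on complete medium under continuous light and were then moved for 72 h to complete (control) medium or to medium without iron that contained ferrozine, a chelator of ferrous iron. The treatment protocol gives 100 µM ferrozine and the series design 300 µM. Each of the 16 groups (4 lines, 2 media, 2 tissues) had 2 libraries, 32 in all, and whether these came from separate cultures is not given. Every p-value, except those the authors deposited, thus rests on the spread between 2 libraries a group, which may be technical.

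Levels are the authors' values on the RPKM scale (read numbers corrected for the length of a gene and the size of a library), as mean ± SD, n = 2 libraries in every group. Libraries of 2 groups are said not to overlap, or to be apart, as a description. With 2 libraries a group this is frequent without any difference, and its share over all genes was not taken. Differences are on the log2(RPKM + 0.5) scale, with the standard error (SE) and the adjusted p of limma over all genes tested in that tissue, and a difference was called where this adjusted p fell below 0.05. The sequencing depth is unknown, because no counts were given. The targeted genes were checked first. In roots IMA1 read 322.36 to 408.8 RPKM in the IMA1 OE libraries of both media and at most 43.85 in EYFP OE, and OPT3 read 2.76 to 4.17 in opt3-2 and at least 9.59 in EYFP OE. In roots on control medium IMA3 read 25.8 to 28.16 in IMA3 OE and 0.33 to 0.81 in EYFP OE. On deficient medium the IMA3 transcript did not separate the lines, with 26.26 to 31.56 RPKM in IMA3 OE roots and 20.89 to 45.74 in EYFP OE roots. In rosettes IMA3 did not mark the line labelled IMA3 OE on either medium, with 12.67 to 14.81 against 9.85 to 48.33 RPKM in EYFP OE on control medium and 108.84 to 126.25 against 286.51 to 429.61 on deficient medium. Root markers (5 CASP genes of the endodermis) summed to 148.19 to 206.18 RPKM in root libraries and 0.4 to 1.82 in rosette libraries. In bulk tissue, a change in the number of cells of a type and a change in RNA per cell cannot be told apart.

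IRT1 and IRT2 lie in tandem on chromosome 4 in the RefSeq annotation of TAIR10.1, IRT2 at chr4:10703348-10704838 and IRT1 at chr4:10707344-10709015, both on the plus strand. The end of IRT2 and the start of IRT1 are 2505 bp apart, with 0 annotated genes between them. Both genes have 3 exons. Their coding sequences, of 1044 bp in IRT1 and 1053 bp in IRT2, were identical at 75.3% of 1017 aligned positions. The longest run shared by both measured 22 bp, which bears on how far reads of the abundant IRT1 transcript could be counted for IRT2. It is shown in capitals with 30 bases of coding sequence on each side, 5′ to 3′ on the plus strand, from chr4:10707872-10707953 for IRT1 and chr4:10703755-10703836 for IRT2.
IRT1: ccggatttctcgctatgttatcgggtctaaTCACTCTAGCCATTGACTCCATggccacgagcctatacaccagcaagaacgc
IRT2: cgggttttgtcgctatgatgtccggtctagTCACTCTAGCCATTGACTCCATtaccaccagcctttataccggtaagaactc
Outside the capitals both sequences differ at many positions, and how the authors treated reads that fit both genes is not given in the sources used here.

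The pumps are longer genes on other loci. AHA2 lies on the minus strand at chr4:14770395-14776247, with 14 exons, and AHA7 on the plus strand at chr3:22298373-22303718, with 22 exons in the transcript of the longest coding sequence among 4. The AHA2 coding sequence was identical to that of AHA1, the other abundant pump, at 89.2% of aligned positions, with a longest shared run of 59 bp, so part of the AHA2 value may depend on how shared reads were assigned. AHA7 was less alike, with 70.2% identity to AHA2. The 5′ end of AHA7 overlaps AT3G60328, a small gene on the opposite strand, and AT3G00950, a noncoding RNA on the same strand. The library kit was stranded, per the labels, but the strand setting of the counting is not given, so reads at this overlap cannot be assigned with certainty.

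In roots of EYFP OE, both importers and AHA7 rose on deficient medium, which was 3 of the 4 genes, while 2.13% of all 20577 genes tested rose. IRT1 read 13.14 and 22.77 RPKM on control medium and 849.08 and 933.02 on deficient medium. The lowest deficient library stood far above both controls, and the means, 17.955 ± 6.81 and 891 ± 59.4 RPKM, differed by 5.64 on the log2 scale (SE 0.24, limma adjusted p = 3.49e-07). IRT1 had rank 6 from the highest among the differences of all genes tested. IRT2 read 2.20 and 2.29 RPKM on control medium and 20.53 and 34.59 on deficient medium, again without overlap. Its difference was 3.34 (SE 0.32, adjusted p = 1.00e-04), rank 40, and its level stayed well below that of IRT1 in every library.

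The differences of the pumps were smaller than those of the importers. AHA7 read 13.47 and 16.92 RPKM on control medium and 35.01 and 43.81 on deficient medium, a difference of 1.35 (SE 0.23, limma adjusted p = 0.00799). The groups did not overlap, but the call was lost without replicate 1 of the control group (adjusted p = 0.0936) or replicate 2 of the deficient group (adjusted p = 0.0967), without the filter on low values (adjusted p = 0.0515) and with the authors' deposited p-values. AHA2 read 374.05 and 439.88 RPKM on control medium and 585.33 and 678.43 on deficient medium, also without overlap. Its difference was 0.55 (SE 0.13, 95% interval 0.26 to 0.84), and its adjusted p of 0.0544 missed the threshold. AHA2 was called higher with library means over all tables (adjusted p = 0.0274), with centring on the median of all genes (adjusted p = 0.0423) and with the authors' deposited p-values (adjusted p = 3.27e-07), and was not called with any one library left out (adjusted p 0.0604 to 0.407). AHA2 was thus the pump with the higher level and the smaller difference, and the AHA2 to AHA7 ratio of the libraries fell from 26 and 27.77 on control medium to 15.49 and 16.72 on deficient medium.

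**Figure D1:**
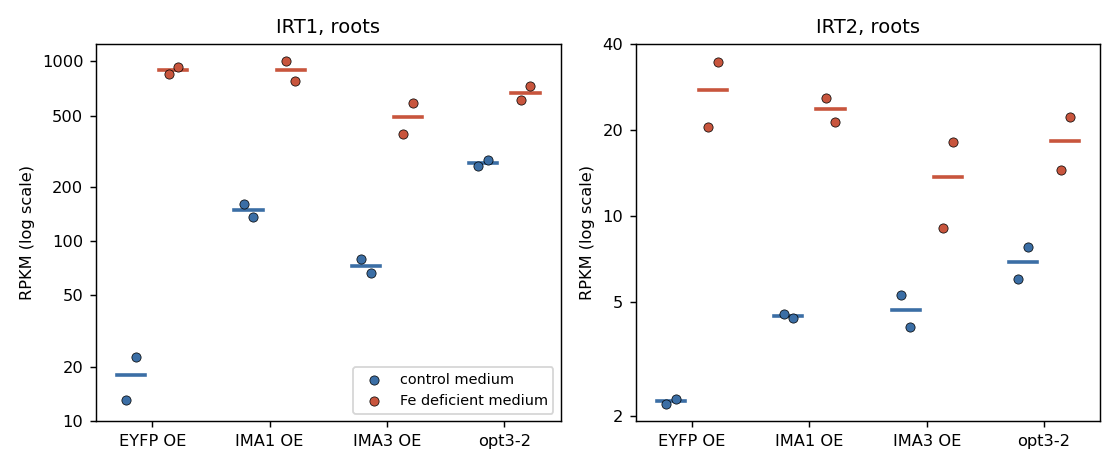
RPKM (log axes) of IRT1 and IRT2 in root libraries of the 4 lines on control and Fe deficient medium, with points for libraries and bars for means of n = 2. On control medium IRT1 was lowest in EYFP OE (13.14 and 22.77) and highest in opt3-2 (260.74 and 281.40), and all deficient libraries lay above all control libraries.

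On control medium, IRT1 was higher than in EYFP OE in each of the 3 other lines, and none of the other 3 genes passed the test in any of them. The share of all genes tested that were higher was 0.34% in IMA1 OE, 0.194% in IMA3 OE and 0.909% in opt3-2. These comparisons share the same 2 EYFP OE libraries. IRT1 read 161.05 and 135.98 RPKM in IMA1 OE, a difference of 3.04 from EYFP OE (SE 0.24, limma adjusted p = 0.000168). In IMA3 OE it read 79.40 and 66.43 RPKM, a difference of 2.01 (SE 0.24, adjusted p = 0.00815). The opt3-2 line had the highest values, 260.74 and 281.40 RPKM, a difference of 3.91 (SE 0.24, adjusted p = 1.35e-05). The IMA3 OE call was lost without replicate 1 of EYFP OE (adjusted p = 0.0519) and without replicate 1 or 2 of IMA3 OE (adjusted p = 0.0886 and 0.0659). When the spread was taken from the compared groups only, the calls of IMA1 OE and IMA3 OE were both lost. Leaf markers were lower in opt3-2 roots on both media and in IMA1 OE roots on control medium. The 5 green leaf markers summed to 159.88 and 300.38 RPKM in opt3-2 roots and 525.93 and 440.91 in EYFP OE roots on control medium (median difference -0.96), and to 85.26 and 128.01 against 293.29 and 451 on deficient medium (median difference -1.51). In IMA1 OE roots they summed to 234.44 and 359.93 on control medium, below both EYFP OE libraries. On deficient medium they summed to 212.83 and 311.54 there, which overlapped EYFP OE. In IMA3 OE roots they overlapped EYFP OE on both media (319.24 and 490.87, then 223.58 and 370.27). The part of the leaf markers in the IRT1 values was not tested.

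With iron supplied, IRT1 in the 3 lines thus stood between its levels in EYFP OE on the 2 media. Relative to EYFP OE on deficient medium, the mean was 8.18% in IMA3 OE, 16.7% in IMA1 OE and 30.4% in opt3-2, against 2.02% in EYFP OE on control medium. The direct comparison with deficient EYFP OE gave differences of -3.59 in IMA3 OE, -2.57 in IMA1 OE and -1.70 in opt3-2, all called lower (adjusted p = 1.42e-05, 0.000156 and 0.00365). Between the lines on control medium, IRT1 was higher in opt3-2 than in IMA3 OE by 1.89 (adjusted p = 0.0121, against 0.141% of all genes called higher). This call was lost without any one of the 4 libraries (adjusted p 0.0754 to 0.194) and without the filter on low values (adjusted p = 0.0731). IMA1 OE differed from IMA3 OE by 1.03 (adjusted p = 0.671) and opt3-2 from IMA1 OE by 0.87 (adjusted p = 0.598). Neither difference was called, and 0.0437% of all genes were called in each of these comparisons.

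IRT2 on control medium was less separated. It read 4.55 and 4.38 RPKM in IMA1 OE, 5.30 and 4.08 in IMA3 OE and 6.02 and 7.80 in opt3-2. All of these lay above the 2.20 and 2.29 of EYFP OE, but the differences of 0.85, 0.89 and 1.41 were not called (limma adjusted p = 0.737, 0.544 and 0.0713). Their 95% intervals, which are not adjusted, began at 0.15, 0.19 and 0.72. Against deficient EYFP OE, IRT2 was lower in all lines, -2.49 in IMA1 OE, -2.43 in IMA3 OE and -1.92 in opt3-2 (adjusted p = 0.00115, 0.00139 and 0.00839). The opt3-2 call was lost without its replicate 1 (adjusted p = 0.0908) or replicate 2 of EYFP OE (adjusted p = 0.107), without the filter (adjusted p = 0.0567), when the spread came from the compared groups only and with the authors' deposited p-values.

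The 2 importers did not keep a fixed ratio. The IRT1 to IRT2 ratio was 5.973 and 9.943 in EYFP OE on control medium, 14.98 and 16.28 in IMA3 OE, 35.4 and 31.05 in IMA1 OE and 43.31 and 36.08 in opt3-2. On deficient medium it lay between 26.97 and 43.61 in all 8 libraries. The IMA1 OE and opt3-2 libraries on control medium were therefore within the range of the deficient libraries, and those of EYFP OE and IMA3 OE below it. No test of this ratio was made.

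AHA7 on control medium read 12.73 and 21.47 RPKM in IMA1 OE, 20.62 and 21.25 in IMA3 OE and 26.04 and 27.23 in opt3-2. The opt3-2 and IMA3 OE libraries lay above both EYFP OE libraries and the IMA1 OE libraries lay on either side of them. The differences from EYFP OE were 0.12, 0.44 and 0.78 (limma adjusted p = 1, 0.733 and 0.204). The low IMA1 OE library, replicate 1, also had the lowest sum of 6 root hair markers of all root libraries, 112.92 RPKM against 140.27 and 149.59 in EYFP OE on control medium. Its part in the AHA7 value was not tested. Against deficient EYFP OE, AHA7 was lower in IMA1 OE by -1.23 (adjusted p = 0.0165), a call lost without that library (-0.86, adjusted p = 0.113), without replicate 2 of EYFP OE (-1.07, adjusted p = 0.156), without the filter (adjusted p = 0.0791), when the spread came from the compared groups only and with the authors' deposited p-values. The differences in IMA3 OE and opt3-2, -0.90 and -0.56, were not called, but that in IMA3 OE was called lower when the spread came from the compared groups only (adjusted p = 0.0339).

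AHA2 on control medium read 452.60 and 496.52 RPKM in IMA1 OE, 461.54 and 509.90 in IMA3 OE and 471.62 and 504.70 in opt3-2. All 6 libraries lay above the higher EYFP OE library, 439.88, and overlapped between the lines. These levels are means over the authors' tables. Between those tables that EYFP OE library read 424.97 to 462.80 and replicate 1 of IMA1 OE 431.22 to 473.97, so the separation was smaller than this shift. The differences of 0.18, 0.20 and 0.22 from EYFP OE (SE 0.13 each) were not called, with 95% intervals that ran from -0.11 to 0.47, from -0.09 to 0.49 and from -0.07 to 0.51. In the comparison with deficient EYFP OE, 3 of the 4 genes were lower in IMA1 OE and 2 of 4 in IMA3 OE and opt3-2, AHA2 in none. The shares of all genes called lower were 1.56%, 1.43% and 0.967%.

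**Figure D2:**
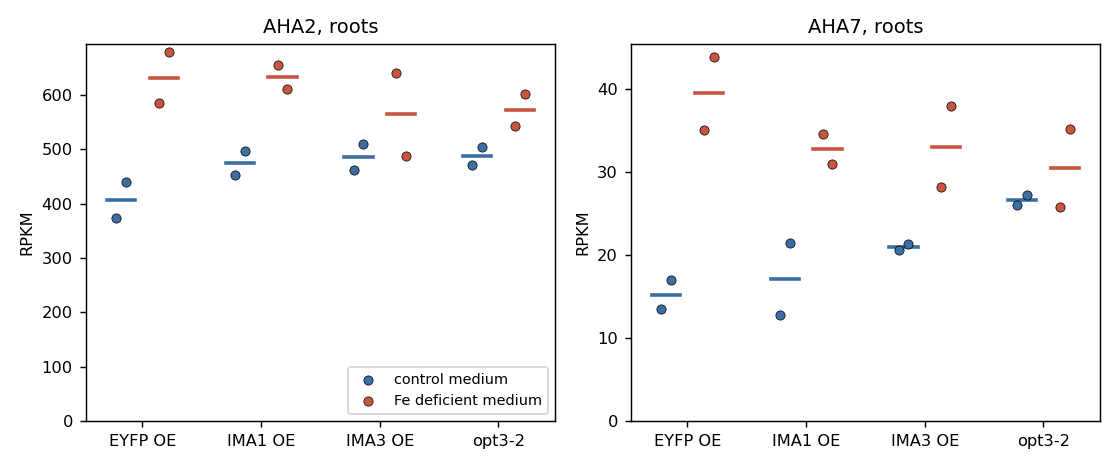
RPKM (linear axes from 0) of AHA2 and AHA7 in root libraries of the 4 lines on both media, with points for libraries and bars for means of n = 2. The media were apart for both pumps in EYFP OE and IMA1 OE, and overlapped for AHA2 in IMA3 OE (461.54 and 509.90 against 640.23 and 488.20) and for AHA7 in opt3-2 (26.04 and 27.23 against 25.73 and 35.11).

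On deficient medium, limma called no difference from EYFP OE for any of the 4 genes in any line. IRT1 read 1006.69 and 780.42 RPKM in IMA1 OE, 396.45 and 587.14 in IMA3 OE and 611.83 and 730.64 in opt3-2. The IMA1 OE libraries lay on either side of those of EYFP OE, and the libraries of IMA3 OE and opt3-2 lay below them. The differences from EYFP OE were -0.01 (95% interval -0.54 to 0.53), -0.87 (-1.41 to -0.34) and -0.40 (-0.93 to 0.13). In these 3 comparisons 0 of the 4 genes were called by limma, and 0, 2 and 0 of them had an unadjusted p under 0.05 in IMA1 OE, IMA3 OE and opt3-2. Those in IMA3 OE were IRT1 and IRT2 (limma adjusted p = 0.244 and 0.375). Of all genes tested, 0.131% were called in IMA1 OE, 0.131% in IMA3 OE and 0.0875% in opt3-2. By the p-values of the authors' deposited tables, adjusted here, IRT1 was called lower in IMA3 OE and opt3-2.

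IRT2 on deficient medium read 25.94 and 21.32 RPKM in IMA1 OE, 9.09 and 18.20 in IMA3 OE and 14.45 and 22.12 in opt3-2. IMA3 OE had the lowest mean, 13.6 ± 6.44 RPKM, below both EYFP OE libraries, and its difference was -0.97 (limma adjusted p = 0.375). AHA7 had means of 32.7 ± 2.57 RPKM in IMA1 OE, 33.0 ± 6.91 in IMA3 OE and 30.4 ± 6.63 in opt3-2, against 39.4 ± 6.22 in EYFP OE. AHA2 had means of 633 ± 31.6, 564 ± 108 and 572 ± 41.5 RPKM, against 632 ± 65.8. For each pump, the ranges of the libraries of neighbouring groups in order of level overlapped.

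The response to the deficient medium was then taken within each line, through the tables that share an EYFP OE group. IRT1 rose in all of them, by 2.56 in IMA1 OE (SE 0.24, limma adjusted p = 0.000243), by 2.80 in IMA3 OE (SE 0.24, adjusted p = 0.00032) and by 1.29 in opt3-2 (SE 0.24, adjusted p = 0.0323). IRT2 rose in IMA1 OE, by 2.31 (SE 0.32, adjusted p = 0.00317), and its differences of 1.45 in IMA3 OE and 1.36 in opt3-2 were not called (adjusted p = 0.0878 and 0.0968). Without replicate 1 of the deficient group the IMA3 OE difference was 1.93 and was called (adjusted p = 0.0132). So 2, 1 and 1 of the 4 genes rose in these lines, where 0.953%, 0.627% and 0.433% of all genes rose. Neither pump passed the test. AHA7 differed by 0.96, 0.71 and 0.18 (adjusted p = 0.0999, 0.456 and 0.917) and AHA2 by 0.37, 0.20 and 0.21 (adjusted p = 0.454, 1 and 0.749). The AHA7 difference in IMA1 OE was called without control replicate 2 (1.33, adjusted p = 0.0215). The opt3-2 call of IRT1 was lost without any one of its 4 libraries (adjusted p 0.12 to 0.217) and without the filter (adjusted p = 0.152).

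The response of IRT1 was smaller than in EYFP OE in each line, from a higher level on control medium. In IMA1 OE the difference from EYFP OE was 3.04 on control medium and -0.01 on deficient medium. It was 2.01 and -0.87 in IMA3 OE, and 3.91 and -0.40 in opt3-2. The difference between responses was -3.05 in IMA1 OE (SE 0.34, limma adjusted p = 0.00851), -2.89 in IMA3 OE (SE 0.34, adjusted p = 0.0127) and -4.30 in opt3-2 (SE 0.34, adjusted p = 0.000332). IRT1 was the member called in these tests, where 0.0632%, 0.112% and 0.423% of all genes were called lower. The same 4 EYFP OE libraries enter all 3 differences. The calls of IMA1 OE and IMA3 OE were lost without replicate 2 of deficient EYFP OE (adjusted p = 0.0673 and 0.0739) and when the spread came from the compared groups only, that of IMA3 OE also without its control replicate 1 (adjusted p = 0.0662). IRT2 differed by -1.03, -1.86 and -1.99 in the order of the lines above, and none of these was called (adjusted p = 1, 0.321 and 0.126). For AHA7 the value farthest from 0 was -1.17 in opt3-2 (95% interval -1.89 to -0.45, adjusted p = 0.274), and for AHA2 it was -0.37 in IMA3 OE (95% interval -0.78 to 0.04, adjusted p = 0.989).

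**Figure D3:**
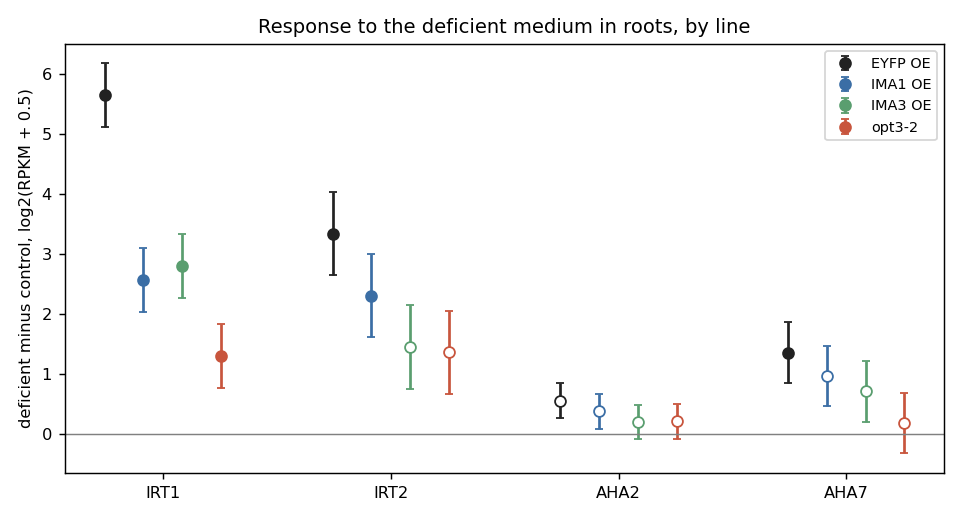
Response to the deficient medium in roots (deficient minus control, log2(RPKM + 0.5)) of the 4 genes in each line, with 95% intervals from limma and filled points for called differences. IRT1 fell from 5.64 in EYFP OE to 1.29 in opt3-2, and the AHA2 values lay between 0.20 and 0.55.

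Across the 8 root groups, the mean level of IRT1 rose in the order EYFP OE, IMA3 OE, IMA1 OE and opt3-2 on control medium, then IMA3 OE, opt3-2, EYFP OE and IMA1 OE on deficient medium. In this order the libraries of deficient IMA1 OE and EYFP OE overlapped, and all other neighbours were apart. The order was made from the same levels, so neighbours that are apart are a description only. For IRT2, neighbours were apart between EYFP OE and IMA1 OE on control medium, between IMA3 OE and opt3-2 on control medium and between control opt3-2 and deficient IMA3 OE. AHA2 had EYFP OE on control medium apart from the next group, but by less than its values shifted between the authors' tables. AHA7 had IMA3 OE and opt3-2 on control medium apart.

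The genes whose group means followed each member most closely were listed by Pearson's r over the 8 root group means, among 20577 genes. The groups fall into 2 media, so high values are common, and they are given as a description. For IRT1 the nearest were FRO2 (0.997), the ferric chelate reductase, the glucosyltransferase gene UGT72E1 (0.995), the glutathione transferase gene GSTL1 (0.993), the vacuolar zinc transporter gene MTPA2, also called MTP3 (0.992), and CYP82C4 (0.991), a coumarin hydroxylase. For IRT2 they were IREG2 (0.996), a vacuolar transporter also called FPN2, AT4G30490 (0.995), the transcription factor gene MYB10 (0.994), AT3G61930 (0.994) and AT1G14185 (0.993). For AHA2 they were PUB23 (0.996), a ubiquitin ligase, AT3G06890 (0.989), WRKY65 (0.988), AT5G35580 (0.987) and IRT2 (0.986). For AHA7 they were AT3G25930 (0.995), ROPGEF10 (0.987), an activator of ROP GTPases, AT1G22540 (0.986), PUB39 (0.985) and AT1G51840 (0.984). IRT1 correlated at 0.954 with IRT2, at 0.946 with AHA2 and at 0.908 with AHA7.

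Of the 11 genes of the AHA pump family, 9 passed the filter in roots, and AHA7 was the 1 called higher in EYFP OE, with 0 lower. Of all genes tested 2.13% rose and 0.442% fell. AHA2 missed the threshold (limma adjusted p = 0.0544), and the calls of both pumps depended on the setting, as given above. The median difference of the tested family genes was 0.01, beside -0.02 over all genes tested. AHA2 had the highest level of the family in roots. AHA1, the other widely expressed pump, was next and read 204.76 and 235.14 RPKM on control medium and 206.68 and 221.57 on deficient medium. AHA11 read 23.18 and 28.03 RPKM on control medium and AHA3, the companion cell pump of the phloem, 17.92 and 15.38. AHA6 was listed at 0 in all EYFP OE libraries and AHA9, at 0.16 to 0.24 RPKM in roots, was below the filter. On deficient medium AHA7 passed both AHA11 (22.27 and 22.25 RPKM) and AHA3 (19.68 and 21.44) in level.

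**Figure D4:**
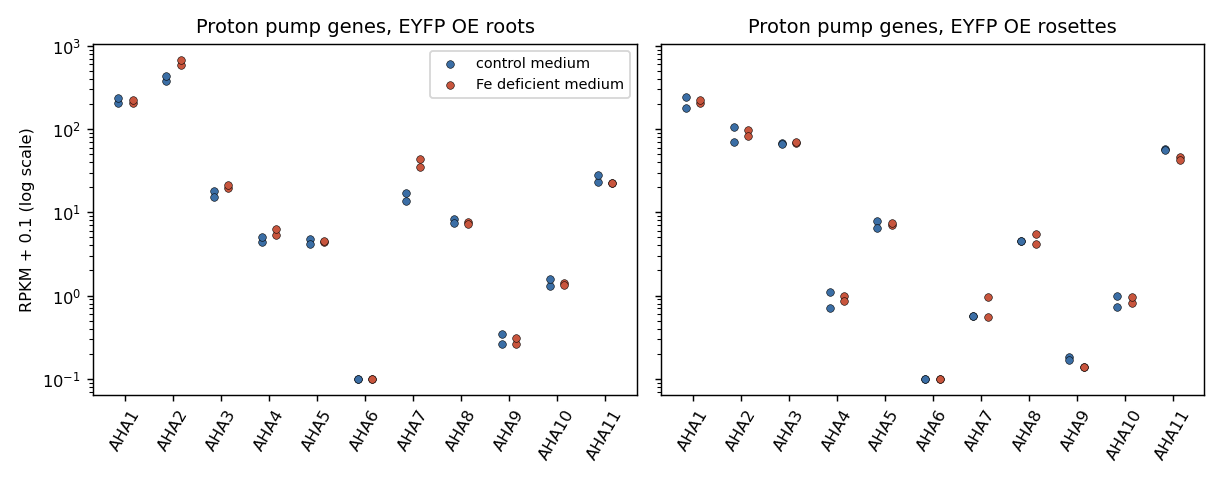
RPKM + 0.1 (log axis) of the 11 AHA pump genes in the EYFP OE libraries of roots and rosettes on control and Fe deficient medium, each point 1 library. In roots AHA7 lay higher on deficient medium (35.01 and 43.81) than on control medium (13.47 and 16.92), and in rosettes AHA1, AHA2, AHA3 and AHA11 had the highest levels.

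The ZIP family of metal transporters, to which both importers belong, split in EYFP OE roots. Of its 12 tested genes 4 rose (IRT1, IRT2, ZIP8 and ZIP9) and 4 fell, with a median of -0.08, where 2.13% of all genes rose and 0.442% fell. ZIP8, which RefSeq annotates as a transcribed pseudogene, read 0.21 RPKM in both control libraries and 12.51 and 16.57 on deficient medium (4.42, limma adjusted p = 7.05e-06). ZIP9 rose by 1.86 (adjusted p = 0.00107). ZIP2 fell from 20.62 and 16.98 RPKM to 3.04 and 3.61 (-2.32, adjusted p = 8.19e-05), and IRT3, a zinc and iron transporter, from 46.22 and 61.64 to 23.25 and 25.86 (-1.10, adjusted p = 0.000699). ZIP3 and ZIP4 fell by 0.97 and 0.76.

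In opt3-2 on control medium 5 of the 12 tested ZIP genes were higher than in EYFP OE and 0 lower, beside 0.909% of all genes called higher. They were IRT1, ZIP8 (3.40), ZIP9 (1.20), ZIP4 (0.81) and ZIP1 (0.64). Within opt3-2, IRT1 was the 1 gene of the family that rose on deficient medium, while IRT3 (-1.53), ZIP1 (-0.93), ZIP2 (-1.73), ZIP3 (-1.20) and ZIP4 (-1.43) fell. Within IMA1 OE 4 rose and 5 fell, and within IMA3 OE 2 rose and 2 fell. The shares of all genes that fell were 0.428% within opt3-2, 0.165% within IMA1 OE and 0.068% within IMA3 OE, and those that rose were 0.433%, 0.953% and 0.627%.

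Genes of the same uptake route rose beside IRT1 in EYFP OE roots. Of 15 genes of iron uptake and coumarin secretion, coumarins being compounds that mobilise iron, 14 rose and 0 fell, with a median of 3.74, where 2.13% of all genes rose. The largest differences were those of S8H (7.75) and CYP82C4 (7.08), enzymes of coumarin synthesis, of the transcription factor gene MYB72 (6.67) and of FRO2 (5.63), and the exception, the nicotianamine synthase gene NAS2, differed by 0.50 (limma adjusted p = 0.234). Of 17 regulators 13 rose and 0 fell, with a median of 1.70. They were led by bHLH100 (6.46), bHLH38 (5.15), IMA3 (4.95) and bHLH39 (4.65), and included FIT (1.70), the transcription factor that activates IRT1 and FRO2 together with those bHLH proteins. Of the uptake genes 8, 4 and 11 were higher than in EYFP OE on control medium in IMA1 OE, IMA3 OE and opt3-2, and of the regulators 6, 4 and 9. The shares of all genes called higher in these comparisons were 0.34%, 0.194% and 0.909%. The regulators include IMA3, which the IMA3 OE construct itself carries.

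Among genes for proteins that act on IRT1 or the pumps, CIPK11 and GRF11 rose in EYFP OE roots, where 2.13% of all genes rose. Of 8 genes listed under the turnover and phosphorylation of IRT1, 1 rose, CIPK11, and 0 fell (median -0.07). CIPK11 encodes a kinase known to act on FIT and on AHA2, so its rise is not read as one of a gene that acts on IRT1, and it is counted again among the pump regulators below. CIPK11 read 18.48 and 17.18 RPKM on control medium and 34.43 and 41.34 on deficient medium (1.08, limma adjusted p = 0.000658). IDF1, the ubiquitin ligase of IRT1, differed by -0.07 (adjusted p = 0.959), and CIPK23, the kinase that acts on IRT1, by -0.26 (adjusted p = 0.429). Of 19 tested pump regulators CIPK11 and GRF11 rose and 0 fell (median 0.07). GRF11 encodes a 14-3-3 protein, a class that activates the pumps by binding, and rose from 5.37 and 5.18 RPKM to 55.43 and 53.75 (3.28, adjusted p = 6.65e-07). GRF11 was also higher on control medium in IMA1 OE (0.93, adjusted p = 0.0457) and opt3-2 (1.79, adjusted p = 0.000203). The other tested 14-3-3 genes of the list lay between -0.10 (GRF1) and 0.15 (GRF6), none of them called.

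The 250 bases before the annotated starts of the 3 genes that rose are shown because the iron deficiency regulators of the bHLH family bind E-box motifs. These sequences are from RefSeq, TAIR10.1, 5′ to 3′ on the strand of the gene, with CANNTG in capitals. They come from chr4:10707094-10707343 for IRT1, chr4:10703098-10703347 for IRT2 and chr3:22298123-22298372 for AHA7, all on the plus strand, and the AHA7 window lies within AT3G00950.
IRT1: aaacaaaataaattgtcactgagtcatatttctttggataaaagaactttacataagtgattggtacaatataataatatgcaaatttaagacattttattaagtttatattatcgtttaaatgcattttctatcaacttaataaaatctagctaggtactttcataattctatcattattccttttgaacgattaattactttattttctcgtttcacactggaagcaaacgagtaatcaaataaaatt
IRT2: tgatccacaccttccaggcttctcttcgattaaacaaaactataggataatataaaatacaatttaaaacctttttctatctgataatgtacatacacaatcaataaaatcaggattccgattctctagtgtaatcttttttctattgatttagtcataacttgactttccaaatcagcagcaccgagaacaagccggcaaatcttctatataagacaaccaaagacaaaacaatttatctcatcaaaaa
AHA7: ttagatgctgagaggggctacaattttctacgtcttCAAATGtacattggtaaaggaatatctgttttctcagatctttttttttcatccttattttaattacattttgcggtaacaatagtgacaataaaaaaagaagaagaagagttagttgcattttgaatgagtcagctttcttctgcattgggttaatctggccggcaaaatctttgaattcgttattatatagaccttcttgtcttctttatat
CANNTG, which reads as CANNTG on the other strand too, had 0 matches in the windows of IRT1, IRT2 and AHA2 and 1 in that of AHA7. Of 27444 such windows of annotated genes, 55.3% held at least 1. CACGTG, a special case of it, had 0 matches in all 4 windows and was present in 6.49% of all. Sites farther upstream were not searched, and these counts say nothing of the binding of any factor.

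In rosettes IRT1 was close to the lowest listed values. It read 0.01 RPKM, the floor of the tables for this gene, in both EYFP OE libraries on control medium and 1.96 and 1.50 on deficient medium. Both deficient libraries lay above both control libraries. IRT1 passed the filter of rosettes through its deficient libraries and its control group is at the floor, so its rosette levels are given here as a description. Differences of IRT1 in rosettes are named further below only for their dependence on the processing, and neither they nor their calls are read as results. Root markers were low but not absent in the same libraries. The 5 CASP genes summed to 1.68 and 0.86 RPKM on control medium and 1.31 and 0.65 on deficient medium, and the 6 root hair markers to 0.6 and 0.53 against 0.35 and 0.15. In EYFP OE roots on deficient medium these sums were 206.18 and 182.82, and 156.05 and 158.2. IRT1 read 849.08 and 933.02 RPKM there. The part of traces of root RNA in the rosette IRT1 levels was not tested.

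IRT1 in the other rosettes read 0.11 and 0.41 RPKM in IMA1 OE, 0.06 and 0.05 in the libraries labelled IMA3 OE and 0.67 and 0.36 in opt3-2 on control medium. On deficient medium it read 1.25 and 0.86, 0.25 and 0.48, and 0.20 and 0.90. No control library of these lines reached the deficient EYFP OE libraries, and the opt3-2 media overlapped.

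IRT2 read 0.01 to 0.18 RPKM in all rosette libraries and was not tested there. AHA7 read 0.26 to 0.87 RPKM, and its EYFP OE difference was 0.24 (95% interval -0.33 to 0.82). AHA2 was the 1 member with a substantial rosette level, 70.39 to 106.58 RPKM, below AHA1 (180.99 to 241.23 in EYFP OE). Its EYFP OE groups overlapped fully, at 88.5 ± 25.6 RPKM on control and 89.5 ± 9.63 on deficient medium, a difference of 0.04 (95% interval -0.43 to 0.52, adjusted p = 1). Over the 16 rosette comparisons of a line with EYFP OE or between media, the lowest adjusted p of limma was 0.949 for AHA2 and 0.853 for AHA7.

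**Figure D5:**
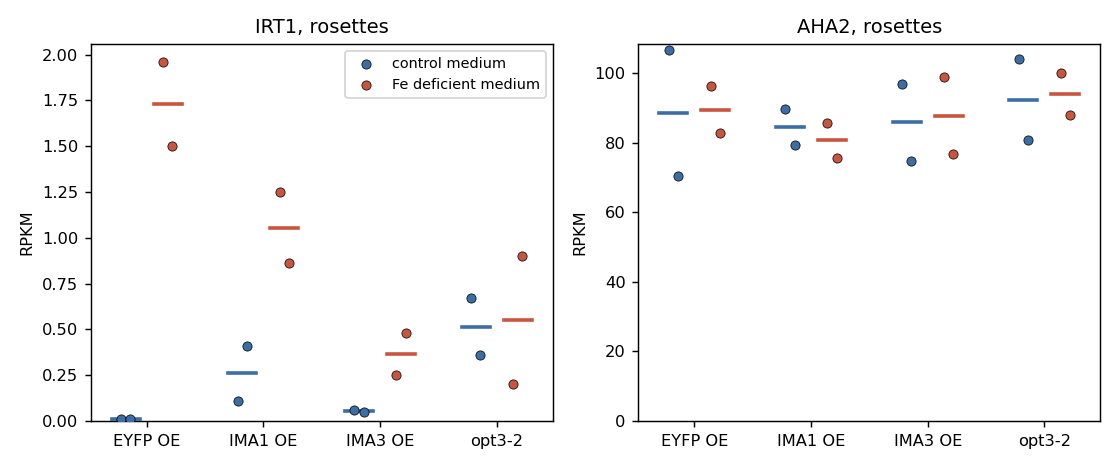
RPKM (linear axes from 0) of IRT1 and AHA2 in rosette libraries of the 4 lines on both media, with points for libraries and bars for means of n = 2. IRT1 reached 1.96 and 1.50 in deficient EYFP OE from 0.01 on control medium, and AHA2 lay between 70.39 and 106.58 with overlapping media in all lines.

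The EYFP OE response of IRT1 could not be compared between tissues, because its rosette control is at the floor. On the log2(RPKM + 0.5) scale the response was larger in roots by 3.57 and with a pseudocount of 0.1 by 1.69, but the log2 fold changes of the authors' deposited table have the opposite order, 5.63 in roots and 7.34 in rosettes. For the pumps, the root response minus the rosette response was tested. AHA7 differed by 1.11 (95% interval 0.39 to 1.83, adjusted p = 0.36) and AHA2 by 0.51 (95% interval -0.02 to 1.04, adjusted p = 1). Of the genes above, the responses of GRF11 (2.88, adjusted p = 4.63e-05) and CIPK11 (1.32, adjusted p = 0.0028) were called larger in roots, as were 0.462% of 18383 genes. The labels give RNA integrity numbers of 9.8 to 10 in roots but 8.3 to 8.7 in leaves. The part of RNA quality in this comparison cannot be told apart from that of the tissue.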

How the data were processed

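The authors deposited 26 tables, each with 4 libraries from 2 groups of the same tissue, an EYFP group always among them. Library values deposited by the authors are on an RPKM scale. No header names this unit, which was read from the values, and the sorted values of the libraries in a table nearly coincide, as after equalising by the authors. Per the file headers, each table further gives a log2 fold change and a p-value (Z-test) of the authors. The headers do not say which spread this Z-test used, so its p-values are not read as checks on the spread between libraries. Tools named in the submitters' processing notes, with no roles, are Bowtie2 2.0.6, bcl2fastq 1.8.4, edgeR 3.12.1, Trimmomatic 0.35 and limma 3.26.9, with TAIR10 as genome. The source field of rosette samples reads roots, and titles and tissue labels were followed.

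Levels are a library's mean over the tables that hold it (7 for EYFP, 2 for others; members above the floor differed by at most 14.7%). A gene was tested in a tissue where its 16 libraries averaged 0.5 RPKM or more. Differences on log2(RPKM + 0.5), which understates changes of low genes, came from the comparison's own table or, within and between lines, from tables joined through EYFP. The spread came from all 8 groups of a tissue (8 residual degrees of freedom) and was moderated with a trend by squeezeVar of limma 3.58.1 in R 4.3.3 (data.table, version 1.17.8). P-values are 2-sided, with Benjamini-Hochberg adjustment in each of 45 comparisons. The scripts were tested on simulated data. The members, the gene lists and the tests were chosen with earlier results of these data known. The text names the members, of each list and comparison at most 4 further genes (those called with the largest differences), and the 5 genes most like each member. Other list genes, such as AHA1, ZIP3, FIT, NAS2, IDF1 and GRF6, were named for their role or as exceptions after their values were seen. Of the ZIP family, more called genes than this limit were named in EYFP OE roots and within opt3-2.

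Read depth is unknown, so precision rests on the spread between libraries. Positions and sequences are from RefSeq TAIR10.1 (Python 3.11.15, Biopython 1.88), and figures were drawn with matplotlib 3.10.9. Alternatives were other pseudocounts (0.1, 1) and filters (none, 1), a replicate block, library means, the spread of only the groups compared, the authors' p-values adjusted here, each library left out and, added after seeing the data, centring on the median of all genes.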

Additional observations from a re-analysis of the deposited data

Results flagged for a closer look

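The response of IRT1 to the deficient medium in roots differed between lines by the test of the difference itself. It was smaller than in EYFP OE by a log2 difference of -3.05 in IMA1 OE, -2.89 in IMA3 OE and -4.30 in opt3-2. In IMA1 OE this restates the higher level on control medium (3.04), because the level on deficient medium differed from EYFP OE by -0.01. The calls of IMA1 OE and IMA3 OE were lost without replicate 2 of EYFP OE on deficient medium (limma adjusted p = 0.0673 and 0.0739) and with the spread of only the groups compared (adjusted p = 0.117 and 0.0994), and that of IMA3 OE also without its control replicate 1 (adjusted p = 0.0662). These 3 values share the EYFP OE libraries, and the IRT1 level of EYFP OE on control medium, 13.14 and 22.77 RPKM, enters each of them.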

How the results depend on the processing

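Of the 89 differences recomputed, 88 kept their direction and call with a pseudocount of 0.1, 87 with 1, 82 without the filter, and all 71 that could be tested with the filter at 1. AHA2 in EYFP OE roots was called higher with library means (0.63), centring (0.57) and the authors' p-values (0.56). With the authors' p-values the calls of AHA7 in EYFP OE (1.38) and of AHA7 in control IMA1 OE (-1.22) and IRT2 in control opt3-2 (-2.03) against deficient EYFP OE in roots were lost. For IRT1 in rosettes, whose differences are not read as results because the lower group is at or near the floor, the authors' deposited log2 fold changes were 7.34 for the EYFP OE response and -5.02 for control IMA3 OE against deficient EYFP OE, and neither was called. By the authors' p-values IRT1 on deficient medium was called lower in IMA3 OE (-0.85) and opt3-2 (-0.39), and IRT1 in IMA1 OE on deficient medium, which is near 0, turned to 0.0027. Without the filter the calls of AHA7 in EYFP OE (1.35) and in control IMA1 OE against deficient EYFP OE (-1.23), IRT2 in control opt3-2 against deficient EYFP OE (-1.92), IRT1 within opt3-2 (1.29) and between opt3-2 and IMA3 OE (1.89) in roots, and IRT1 in rosettes (2.07 and -1.99) were lost at unchanged values. With the spread taken from the compared groups only, the lost calls were IRT1 in IMA1 OE (3.04) and IMA3 OE (2.01) on control medium, both their differences of response (-3.05 and -2.89), AHA7 in control IMA1 OE (-1.23) and IRT2 in control opt3-2 (-1.92) against deficient EYFP OE, and IRT1 in rosettes (2.07 and -1.99), and AHA7 in control IMA3 OE against deficient EYFP OE (-0.90) was gained. A pseudocount of 1 made IRT1 in control IMA1 OE rosettes lower than in deficient EYFP OE (-1.14), turned the value near 0 within opt3-2 rosettes to 0.0071, and one of 0.1 ended the tissue difference (1.69). The cause was not tested, except that the tissue difference rests on a rosette control at the floor.

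Replicate numbers were not taken as pairs in the main test, which would have asked for a correlation above 0.1 in all pairs of groups. Same-numbered deviations correlated above 0.1 in 26 of 28 pairs of groups in roots (median r 0.233) and 27 of 28 in rosettes (median r 0.369). Most groups thus shared a part of these deviations, and the main test does not take it into account. With the replicate block, the genes called in the EYFP OE root response rose in number from 530 to 863, no call of a member was lost and 8 were gained: AHA2 in EYFP OE (0.55), AHA7 within IMA1 OE (0.96), in control IMA3 OE against deficient EYFP OE (-0.90) and in control opt3-2 (0.78), IRT2 within IMA3 OE (1.45), within opt3-2 (1.36) and in control opt3-2 (1.41), and IRT1 in control IMA1 OE rosettes against deficient EYFP OE (-1.60). The last of these, a rosette difference of IRT1, is not read as a result.

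With each library left out in turn, the ranges of roots calls that changed were 1.19 to 1.51 for AHA7 in EYFP OE, 1.63 to 2.40 for IRT1 in control IMA3 OE, 1.17 to 1.41 within opt3-2, 1.77 to 2.02 between opt3-2 and IMA3 OE, and -3.43 to -2.66 and -3.27 to -2.50 for the IRT1 differences of response in IMA1 OE and IMA3 OE. They were -1.60 to -0.86 for AHA7 in control IMA1 OE and -2.29 to -1.55 for IRT2 in control opt3-2 against deficient EYFP OE, and, as gains, 0.60 to 1.33 for AHA7 within IMA1 OE and 0.97 to 1.93 for IRT2 within IMA3 OE. In rosettes they were 1.92 to 2.22 for IRT1 in EYFP OE and -2.14 to -1.84 for control IMA3 OE against deficient EYFP OE. Neither rosette difference is read as a result, because the lower group is at or near the floor. Uncalled differences crossed 0. Against EYFP OE on deficient medium in roots, these were IRT1 (-0.19 to 0.18), IRT2 (-0.56 to 0.18) and AHA2 (-0.057 to 0.094) in IMA1 OE, AHA2 (-0.35 to 0.012) and AHA7 (-0.42 to 0.011) in IMA3 OE and AHA2 (-0.17 to 0.019) in opt3-2. The others were AHA7 in control IMA1 OE (-0.25 to 0.48), AHA2 within IMA3 OE (-0.013 to 0.41), AHA7 within opt3-2 (-0.039 to 0.40) and IRT1 within opt3-2 rosettes (-0.51 to 0.49). The genes called in the EYFP OE response numbered 530 in roots and 66 in rosettes, 282 to 371 and 18 to 77 with 1 library left out, 270 and 0 with the spread of only the groups compared, and 150 in roots by the authors' p-values. Depth was unknown, and 2 libraries a group limit what can be called.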
